A study of Mus musculus with 10 samples.

Results

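Cell adhesion genes of mammary epithelium were followed across 5 sorted cell populations: the classical cadherins Cdh1, Cdh2, Cdh3 and Cdh11, the atypical cadherin Cdh13, and Epcam, which is an adhesion molecule outside the cadherin family. These are 6 of the 49671 gene identifiers in the count tables, chosen by name and matched to GENCODE M21, and all 6 had enough counts to be among the 19757 genes tested. The samples are 10 libraries from mouse mammary gland, 2 per population. The populations without a treatment are basal cells (BC) and luminal cells (LC), and replicate 2 of both is marked WT, for wild type. The other populations, all labelled with luminal cell ablation, are TBC, which are Tomato basal cells, THC, which are Tomato hybrid cells, and TLC, which are Tomato luminal cells. Tomato is a red fluorescent protein used to mark cells. The labels name no strain, age, allele, driver of Tomato or agent of ablation for any population, and do not say whether animals were pooled. Since the labels give neither for BC and LC, ablation and Tomato marking cannot be told apart when TBC, THC or TLC are set against them. The cells were sorted with antibodies that the labels do not name. Epcam protein is often used to gate mammary epithelium, so whether Epcam served in the sort is unknown here. The labels do not say whether both replicates of a population are from different animals, so p-values measure only the spread between these samples. Differences are log2 fold changes with their standard error (SE) from edgeR's quasi-likelihood test on all 10 libraries, and a gene is called where its Benjamini-Hochberg adjusted p, over all genes tested, was under 0.05.

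Classical cadherins join neighbouring cells by calcium-dependent binding between their outer domains. Their tails bind p120-catenin and are tied to actin through beta-catenin and alpha-catenin. In the mammary gland the luminal layer is known for E-cadherin, the product of Cdh1, and the basal layer for P-cadherin, the product of Cdh3. N-cadherin (Cdh2) and cadherin-11 (Cdh11) are best known from neural and mesenchymal cells, T-cadherin (Cdh13) has no tail and is held in the membrane by a lipid anchor, and Epcam binds between epithelial cells without calcium and associates with the claudin Cldn7.

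On GRCm38, Cdh3 (ENSMUSG00000061048, chromosome 8, 106510891 to 106557297, plus strand) and Cdh1 (ENSMUSG00000000303, chromosome 8, 106603351 to 106670246, plus strand) are neighbours, 46.1 kb apart with 1 other protein-coding gene between them. Cdh11 (ENSMUSG00000031673, 102632095 to 102785642, minus strand) and Cdh13 (ENSMUSG00000031841, 118283733 to 119324921, plus strand) lie on the same chromosome. Epcam (ENSMUSG00000045394, 87635979 to 87651129, plus strand) is on chromosome 17. No exon of the 6 genes overlaps an exon of another annotated gene, and no stretch of 50 bases is shared between the transcripts of any pair of them.

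For 1 of the 6 genes, Epcam, a promoter sequence could be matched in RefSeq (GRCm38.p6). The 250 bases before its start, chr17:87635729-87635978 on the plus strand, are shown because Epcam was the only member called between TBC and THC. Capitals mark 2 kinds of motif, chosen with the sequence in view.
Epcam: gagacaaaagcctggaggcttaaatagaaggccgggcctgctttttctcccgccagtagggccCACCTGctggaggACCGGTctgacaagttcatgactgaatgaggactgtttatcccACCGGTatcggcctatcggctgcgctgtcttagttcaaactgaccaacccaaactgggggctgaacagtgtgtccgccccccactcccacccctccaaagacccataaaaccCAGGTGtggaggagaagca
CAGGTG, the E-box that Snail and Zeb repressors bind, occurs 2 times when both strands are read, and 17.2% of 32851 RefSeq promoters of this length hold it. ACCGGT, the core of the site of Grainyhead-like activators, also occurs 2 times, without overlap with the E-boxes, against 1.86% of promoters. The full Grainyhead-like motif AACCGGTT is not in this window. A match is a description of the letters and shows no binding.

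Counts assigned to genes ranged from 2757773 in THC replicate 1 to 13685674 in LC replicate 2, so 3 counts equal 0.202 to 1.16 CPM, the count scaled to the size of the library. THC replicate 1 also had 43% of its reads without a unique alignment, against 14.6% to 22.4% elsewhere. The labels held up against lineage markers. The 10 basal markers summed to 9845 to 17741 CPM in BC and TBC, 4816 and 5600 in THC, 759 and 1182 in TLC and 120 and 213 in LC. The 12 luminal markers summed to 808 to 1485 CPM in BC and TBC, 4320 and 5112 in THC, 5165 and 5577 in TLC and 13030 and 14525 in LC. THC had the highest sums for markers of 3 other cell types. The 10 endothelial markers summed to 656 and 672 CPM in THC against 83.5 to 471 in the other libraries, and the 9 fibroblast markers to 934 and 1970 against 168 to 680, with counts for each of these markers in each library. Most of the fibroblast sum in THC came from Col1a1, Col1a2 and Col3a1, at means of 482, 302 and 430 CPM. Lum, Dpt and Mfap5 were also highest in THC. Dcn was higher in LC (271 against 105 CPM), Pdgfra in BC (60.6 against 27.9) and Fbln1 in TBC (83.9 against 73.5). The 8 immune markers, 1 of them without counts in each THC library, summed to 134 and 322 CPM there against 46.4 to 98.2 elsewhere. The 7 pericyte markers summed to 386 and 319 CPM in THC and 93.7 to 382 elsewhere. Their mean log2 CPM was highest in THC, at 4.26 and 3.87 against 1.34 to 3.36. Among them Notch3 averaged 148 CPM in THC but 303 in TLC and 264 in LC.

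**Figure D1:**
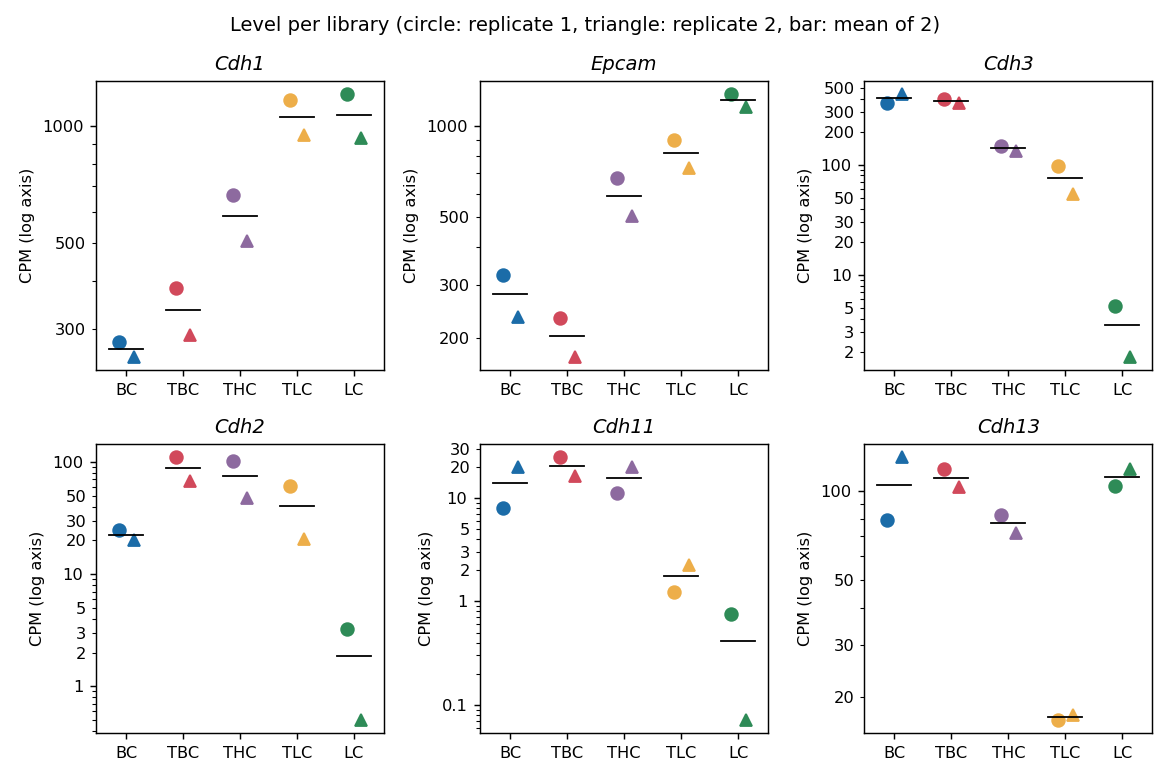
Level of each gene in CPM (log axis) by population, with a circle for replicate 1, a triangle for replicate 2 and a bar for their mean. Means of Cdh1 run from 266 CPM in BC to 1070 in LC, those of Cdh3 from 403 in BC down to 3.5 in LC, and Cdh13 stands at 17.2 in TLC against 77.5 to 111 in the other populations.

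Cdh1, the adhesion receptor of luminal epithelium, was present in all 5 populations and stood 4.02-fold higher in LC than in BC. It read 278 and 254 CPM for BC, 382 and 290 for TBC, 665 and 507 for THC, 1169 and 946 for TLC, and 1208 and 932 for LC. The populations stepped upward without overlap except that TLC and LC overlapped. In sorted bulk samples such as these, fewer cells with a transcript and less of it per cell cannot be told apart. LC exceeded BC by 2.01 log2 units (SE 0.27, adjusted p = 3.0e-04), and TLC exceeded TBC by 1.65 (SE 0.27, adjusted p = 0.0019). TLC and LC averaged 1057 ± 158 and 1070 ± 195 CPM (SD, n = 2 each), a log2 difference of -0.02 with a 95% interval of -0.60 to 0.56 (adjusted p = 0.98). TBC and BC differed by 0.33 with an interval of -0.25 to 0.92 (adjusted p = 0.75).

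Epcam followed Cdh1 on the whole, with r = 0.94 between their log2 CPM over the 10 libraries, a description of libraries that share 5 populations. It stood at 322 and 235 CPM for BC, 232 and 173 for TBC, 673 and 504 for THC, 903 and 728 for TLC, and 1277 and 1162 for LC. No 2 neighbours in the order of levels overlapped, with TBC at the bottom and LC at the top, although BC and TBC came as close as 235 and 232 CPM. LC exceeded BC by 2.13 log2 units (SE 0.28, adjusted p = 2.5e-04), and TLC exceeded TBC by 2.01 (SE 0.28, adjusted p = 7.6e-04). Although every TLC library lay below every LC library, the difference of -0.58 (95% interval -1.18 to 0.02) had an adjusted p of 0.24. The difference between TBC and BC was -0.46 (95% interval -1.06 to 0.14, adjusted p = 0.65).

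Cdh3, the cadherin of the basal layer, had the largest fold difference of the 6 genes between LC and BC. It read 368 and 438 CPM for BC, 400 and 363 for TBC, 148 and 134 for THC, 97.2 and 54 for TLC, and only 5.2 and 1.79 for LC. Below the overlapping pair of BC and TBC, each population lay clear of the next. BC was 119-fold above LC (log2 difference of LC to BC -6.90, SE 0.49, adjusted p = 6.9e-06). TLC had 22.3-fold more Cdh3 than LC (log2 difference 4.48, SE 0.45, adjusted p = 4.9e-04), and was 5.06-fold below TBC (log2 difference -2.34, SE 0.39, adjusted p = 0.0024). TBC and BC differed by -0.08 (95% interval -0.89 to 0.73, adjusted p = 0.97).

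The gene Cdh2 (ENSMUSG00000024304, GRCm38 chromosome 18, 16588877 to 16809246, minus strand), a cadherin more typical of mesenchymal and neural cells, was lowest in LC and had its highest values in Tomato populations. Its CPM were 24.5 and 20 for BC, 111 and 67 for TBC, 102 and 48 for THC, 61 and 20.7 for TLC, and 3.25 and 0.503 for LC, the last from 30 and 7 counts. Replicate 1 exceeded replicate 2 in every population. THC overlapped both TBC and TLC, TLC overlapped BC, and LC lay below all others. TLC exceeded LC by 4.54 log2 units (SE 0.85, adjusted p = 0.015), and THC exceeded LC by 5.40 (SE 0.87, adjusted p = 0.0057). LC was below BC (-3.66, SE 0.84, adjusted p = 0.013). All TBC and THC libraries lay above both BC libraries, but the differences of 2.01 (SE 0.70, adjusted p = 0.5) and 1.74 (SE 0.70, adjusted p = 0.17) were not called. The second was called with the run of library numbers in the titles as a term (the library number term) and in a fit of BC and THC alone (adjusted p = 0.02 and 0.041). The call of TLC against LC was lost without TLC replicate 1 (3.57, adjusted p = 0.083), without LC replicate 2 (3.62, adjusted p = 0.065) and without a filter on low counts (adjusted p = 0.071). That of LC against BC was lost without BC replicate 1, BC replicate 2 or LC replicate 2 (-3.54, -3.80 and -2.78, adjusted p = 0.071, 0.066 and 0.062) and without the filter (adjusted p = 0.077).

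Cdh11, the type II cadherin of mesenchyme and bone, had the lowest mean CPM per kb of the 6 genes in each population, from 0.0466 in LC to 2.31 in TBC. It read 8.04 and 20 CPM for BC, 24.9 and 16.1 for TBC, 11.2 and 20.1 for THC, 1.23 and 2.27 for TLC, and 0.759 and 0.0718 for LC. BC, TBC and THC overlapped, and both luminal populations lay below them, with 7 and 25 counts in TLC and 7 and 1 in LC. LC was below BC (log2 difference -5.24, SE 0.79, adjusted p = 7.8e-04) and TLC below TBC (-3.47, SE 0.67, adjusted p = 0.006). The second of these was lost without TLC replicate 1 (adjusted p = 0.064). TLC stood above LC by 2.29 (SE 0.86), which was not called (adjusted p = 0.14), although DESeq2 called it (adjusted p = 0.032), as did the fit without LC replicate 1, at 4.43 (adjusted p = 0.042). Cdh11 is also expressed by fibroblasts. Their 9 markers summed to 321 and 311 CPM in BC, 382 and 680 in TBC and 934 and 1970 in THC. In TLC they summed to 168 and 353 CPM and in LC to 321 and 291. Mean Cdh11 was 15.7 CPM in THC and 20.5 in TBC. Of these sums Dcn alone averaged 271 CPM in LC and 102 in BC. The median log2 fold change of the 9 markers in LC against BC was -2.18. There 3 were called lower and 0 higher, where 12.5% of all genes were called lower. In TLC against TBC the median was -0.96, with 2 called lower (8.02% of all genes). The part of fibroblasts in the result was not tested.

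Cdh13 was set apart by its low level in TLC. It read 79.6 and 130 CPM for BC, 118 and 103 for TBC, 82.9 and 72.1 for THC, and 104 and 118 for LC, but 16.8 and 17.5 for TLC. The TLC libraries lay below all 8 others, which overlapped between every pair of neighbours in their order. TLC was 6.46-fold below LC (log2 difference -2.69, SE 0.26, adjusted p = 3.1e-04) and 6.43-fold below TBC (-2.68, SE 0.26, adjusted p = 8.5e-05), and THC was 4.5-fold above TLC (2.17, SE 0.26, adjusted p = 0.0037). LC and BC averaged 111 ± 10.1 and 105 ± 35.8 CPM (SD, n = 2 each) and differed by 0.08 (95% interval -0.44 to 0.60, adjusted p = 0.86). T-cadherin is also made by endothelium. The 10 endothelial markers summed to 114 and 123 CPM in TLC, between the 83.5 and 274 of LC. In BC they summed to 471 and 136 CPM, in TBC to 211 and 229 and in THC to 656 and 672, all above TLC. Mean Cdh13 was above TLC in all of these populations, and was 77.5 CPM in THC and 111 in TBC. The part of endothelium in these differences was not tested. The call of THC against TLC was lost without TLC replicate 2 (adjusted p = 0.094).

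**Figure D2:**
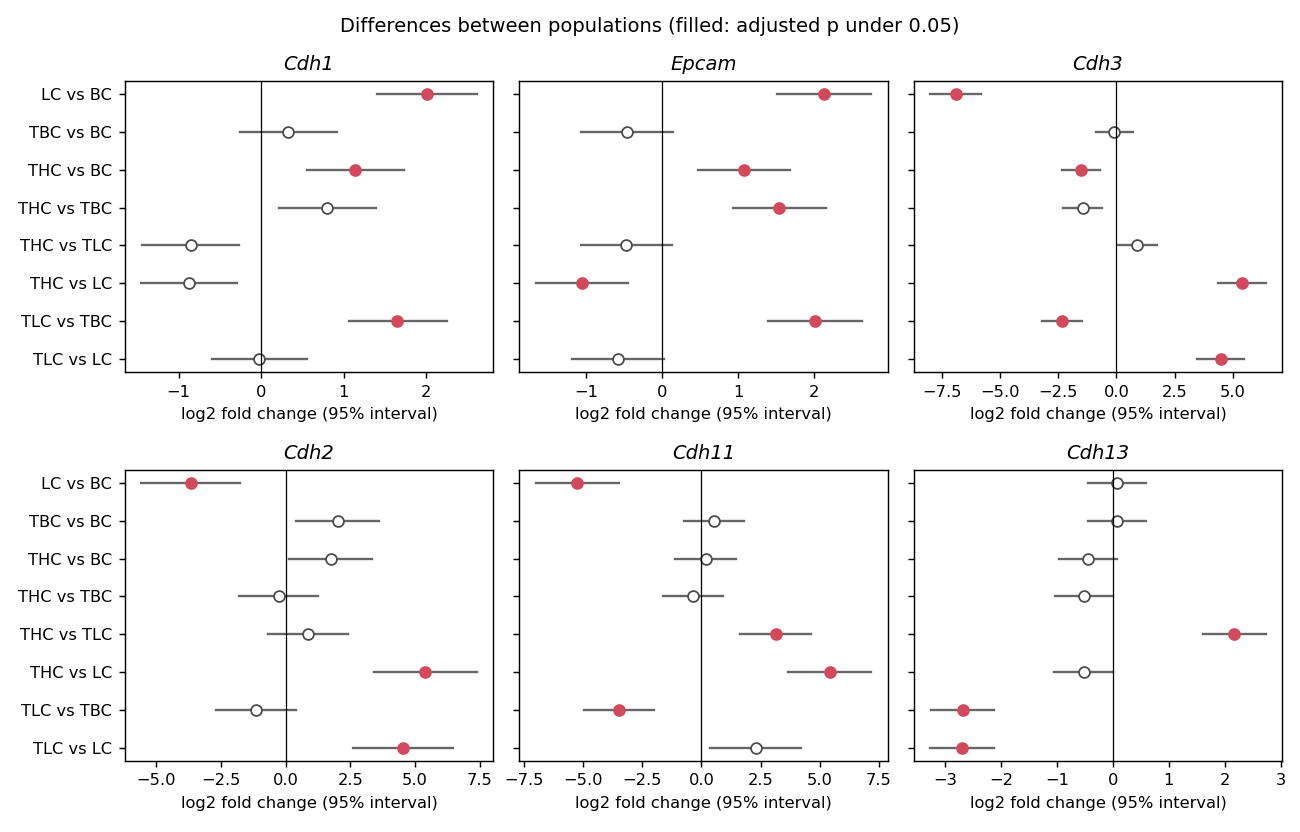
Log2 fold change (point) with its 95% interval (line) of each gene in 8 comparisons, filled where the adjusted p was under 0.05. Cdh1 sits at -0.02 in TLC vs LC while Cdh3 and Cdh2 sit at 4.48 and 4.54 and Cdh13 at -2.69.

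Counted over the 6 genes, LC against BC had 2 called higher (Cdh1, Epcam) and 3 called lower (Cdh2, Cdh3, Cdh11), where 24.0% of all genes were called, 11.5% higher and 12.5% lower. Their median log2 fold change was -1.79, against -0.04 over all genes tested. TLC against TBC also had 2 called higher and 3 lower, with the genes in the same directions except that Cdh13 was called lower and Cdh2 was not called (13.6% of all genes called, 5.59% higher and 8.02% lower). TLC against LC had Cdh2 and Cdh3 higher and Cdh13 lower, 3 of 6 (8.22% of all genes called, 4.46% higher and 3.77% lower). In TBC against BC edgeR called 0 of 6 genes and 0% of all genes, with 1725 genes below 0.05 before adjustment, among them 1 of the 6, Cdh2. DESeq2 called 203 genes and limma-voom 0 there, none of them among the 6. Libraries of the 2 populations did not overlap for 3 of 6 genes in TBC against BC, where 41.5% of all genes showed the same. That number was 5 of 6 in LC against BC (60.3% of all genes), 5 in TLC against LC (49.2%), 6 in TLC against TBC (54.5%), 4 in THC against BC (53.9%), 4 in THC against TBC (51.7%), 6 in THC against LC (56.6%) and 5 in THC against TLC (38.1%).

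The 2 comparisons of Tomato cells with cells without a treatment were set against each other directly, as TLC to LC less TBC to BC. Ablation and Tomato marking cannot be told apart in this difference. It was called for Cdh3, at 4.56 log2 units (SE 0.57, adjusted p = 0.0071), and for Cdh13, at -2.76 (SE 0.35, adjusted p = 0.0066), 2 of 6 where 0.911% of all genes were called, 0.552% higher and 0.359% lower. For Cdh2 the same difference was 2.53 (SE 1.06, adjusted p = 0.45), for Cdh11 1.77 (SE 1.04, adjusted p = 0.63), for Cdh1 -0.35 (SE 0.37, adjusted p = 0.84) and for Epcam -0.12 (SE 0.38, adjusted p = 0.96).

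The basal cadherins of TLC were next set against other basal genes, with each TLC mean given as a percent of the TBC mean. Cdh2 stood at 45.8%, Cdh3 at 19.8% and Cdh11 at 8.53%. Summed, the 10 basal markers stood at 6.29%, with 4.28% to 9.02% as the lowest and highest value over pairs of libraries. The basal keratins lay on both sides of Cdh3, with Krt14 at 34.6% and Krt5 at 12%, and the contractile genes of myoepithelium were lower, with Acta2, smooth muscle actin, at 1.78%, Myh11, smooth muscle myosin, at 1.3% and Cnn1, calponin, at 0.954%. Over pairs of libraries Cdh3 ran from 13.5% to 26.8%, above the highest value of the summed markers. This range overlapped those of Krt5 (6.9% to 17.9%) and Krt14 (22% to 50.8%). For LC as a percent of BC, Cdh3 stood at 0.868%, Cdh2 at 8.44%, Cdh11 at 2.96% and the summed markers at 1.33%, and no single basal marker passed 3.77%, the value of Tagln.

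**Figure D3:**
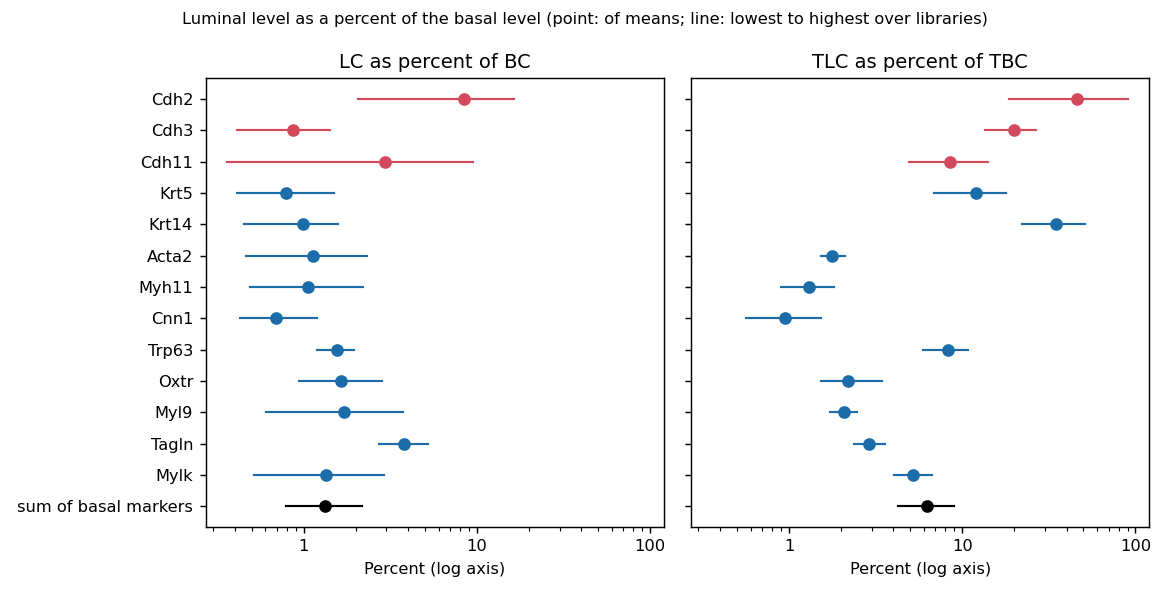
Level of LC as a percent of BC (left) and of TLC as a percent of TBC (right) on log axes, for 3 cadherins in red, 10 basal markers in blue and their sum in black. Points are ratios of means and lines run from the lowest to the highest ratio over libraries; on the right Cdh3 (19.8%), Cdh2 (45.8%) and Krt14 (34.6%) stand far to the right of Acta2 (1.78%) and Cnn1 (0.954%).

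The THC libraries had mean levels of Cdh1, Epcam and Cdh3 between those of TBC and TLC. In bulk samples, cells that express these genes together and a mixture of basal and luminal cells cannot be told apart. Against BC, Cdh1 was higher in THC by 1.14 log2 units (SE 0.27, adjusted p = 0.027), Epcam was higher by 1.08 (SE 0.28, adjusted p = 0.037), and Cdh3 was lower (-1.52, SE 0.38, adjusted p = 0.035), which makes 3 of 6 where 7.71% of all genes were called, 5% higher and 2.72% lower. Each of these 3 calls was lost when any of the 4 libraries was left out, at adjusted p of 0.061 to 0.23, and that of Epcam also in a fit of BC and THC alone (adjusted p = 0.078). Against TBC only Epcam was called, higher by 1.54 (SE 0.28, adjusted p = 0.012, with 3.72% of all genes called, 2.57% higher and 1.14% lower). It was lost without TBC replicate 1, TBC replicate 2 or THC replicate 1 (adjusted p = 0.058, 0.14 and 0.088). Cdh1 at 0.80 (SE 0.27, adjusted p = 0.14) and Cdh3 at -1.44 (SE 0.38, adjusted p = 0.065) were not called there, although their libraries did not overlap and DESeq2 and limma-voom called Cdh3 (adjusted p = 0.0025 and 0.029). With the library number term both were called (adjusted p = 0.022 for Cdh1 and 0.024 for Cdh3).

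Against LC, THC had higher Cdh3 (5.38, SE 0.47, adjusted p = 9.5e-05), Cdh11 (5.42, SE 0.79, adjusted p = 0.002) and Cdh2, and lower Epcam (-1.05, SE 0.27, adjusted p = 0.028), 4 of 6 where 12.9% of all genes were called, 8.91% higher and 4% lower. The Epcam call was lost when any library of THC or LC was left out (adjusted p = 0.062 to 0.17) and in a fit of THC and LC alone (adjusted p = 0.051). Cdh1 was not called there (-0.87, SE 0.27, adjusted p = 0.054), but DESeq2, limma-voom and the library number term called it (adjusted p = 0.01, 0.038 and 0.0073). Against TLC, THC had higher Cdh13 and higher Cdh11, the latter at 3.13 (SE 0.67) with an adjusted p of 0.049, where 1.61% of all genes were called, 1.52% higher and 0.0911% lower. The Cdh11 call was lost without any 1 of the THC and TLC libraries (adjusted p = 0.074 to 0.33), with RLE factors, with limma-voom and with a stricter filter (adjusted p = 0.055, 0.057 and 0.053). The values not called against TLC were -0.85 for Cdh1 (adjusted p = 0.17), 0.90 for Cdh3 (adjusted p = 0.35), 0.87 for Cdh2 (adjusted p = 0.77) and -0.47 for Epcam (adjusted p = 0.59), and DESeq2 and the library number term called Cdh1 (adjusted p = 0.031 and 0.028). Beside these values stand the endothelial, fibroblast and immune marker sums given above, highest in both THC libraries, and their part in the levels of Cdh2, Cdh11 and Cdh13 in THC was not tested. EdgeR called none of the 6 genes in THC as different from the log2 midpoint of TBC and TLC (0.380% of all genes). Values ran from -0.27 for Cdh3 to 1.39 for Cdh11. The raw p was under 0.05 for 3 of the 6 (Cdh11, Cdh13, Epcam). It was also under 0.05 for 1702 of the 19757 genes tested, 1516 of them higher. DESeq2 and limma-voom called none of the 6, and without the low-count filter Cdh11 and Cdh13 were called (adjusted p = 0.0069 and 0.017).

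To compare genes with each other, counts were divided by the length of each gene's merged exons, and each cadherin was taken as a share of the 5 cadherins measured. Cdh3 held the largest share in BC, 53.9% and 58.1%, and in TBC, 45.2% and 50%, with Cdh1 at 32.4% to 41.4%. In THC the order was turned, with Cdh1 at 72.5% and 71% and Cdh3 at 16.8% and 19.6%. Cdh1 made up 89.1% and 92.5% in TLC and 96% and 94.9% in LC. The second cadherin of LC was Cdh13, at 3.36% and 4.9%, whereas in TLC it was Cdh3, at 7.73% and 5.51%, with Cdh13 at 0.523% and 0.696%. Cdh2 reached at most 6.84%, in TBC replicate 1, and Cdh11 at most 1.45%. The 5 together came to 164 ± 11.4 CPM per kb in BC, 184 ± 25.8 in TBC, 178 ± 31.3 in THC, 255 ± 44.8 in TLC and 245 ± 42.6 in LC (SD, n = 2 each). Epcam alone, on the same scale, stood at 127 ± 28 CPM per kb in BC and 556 ± 36.9 in LC (SD, n = 2 each).

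**Figure D4:**
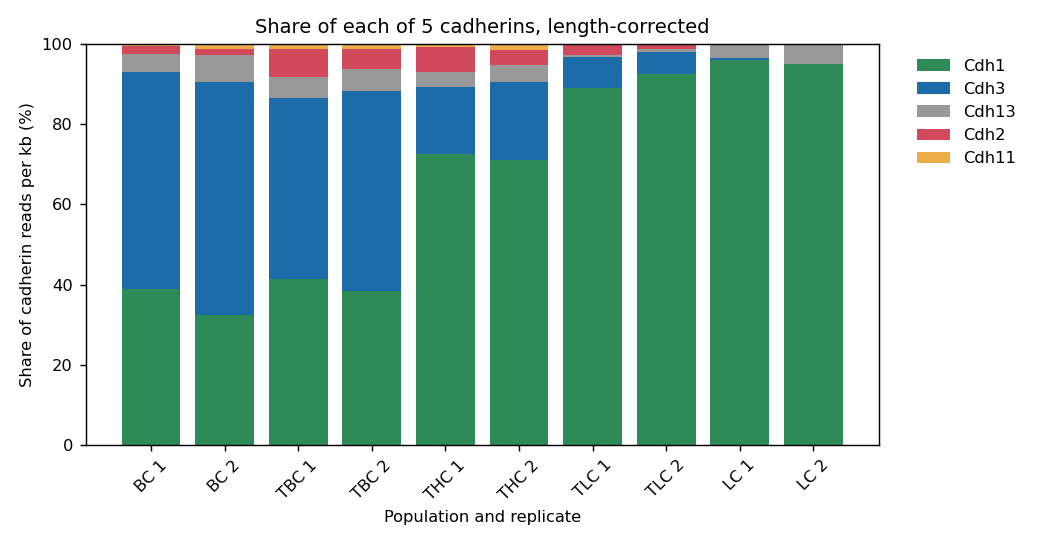
Share of each of 5 cadherins in their summed reads per kb of exon (percent), with 1 bar per library. Cdh1 takes 32.4% to 41.4% in BC and TBC, 71% and 72.5% in THC and 89.1% to 96% in TLC and LC, and Cdh3 holds most of the rest in all libraries but those of LC.

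Among 15 adherens junction partners, the smallest adjusted p in LC against BC belonged to nectins, adhesion receptors that act beside cadherins, and none of the 4 catenins was called. In LC against BC 3 of 15 were higher, 4 were lower and 8 were not called, with a median log2 fold change of -0.32, where 11.5% of all genes were called higher and 12.5% lower. Nectin4 was higher (3.70, SE 0.37, adjusted p = 3.6e-05), and Nectin3 (-3.25, SE 0.32, adjusted p = 3.5e-05) and the LIM protein Ajuba (-2.51) were lower. The log2 fold changes of the catenins were 0.31 for Ctnnb1, 0.14 for Ctnna1, 0.46 for Ctnnd1 and 0.70 for Jup, the plakoglobin gene, with adjusted p of 0.43, 0.74, 0.15 and 0.054. Jup was called by DESeq2 and limma-voom (adjusted p = 0.03 and 0.04). In TLC against LC, where 8.22% of all genes were called, 1 of 15 was, Nectin3, higher by 1.78 (SE 0.32, adjusted p = 0.0064, and 0.056 without TLC replicate 1). The median over the 15 was 0.27 against 0.00 over all genes, and the catenins lay between -0.19 (Ctnna1) and 0.32 (Ctnnb1). In THC against TBC Nectin4 (2.97) and Nectin2 (1.05) were higher and Ajuba (-1.49) lower, and 12 were not called (3.72% of all genes called). Of these calls, that of Nectin4 held when any library of THC or TBC was left out, and those of Nectin2 and Ajuba were lost each time (adjusted p = 0.079 to 0.21).

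Of 13 relatives, partners and proteases of Epcam, 7 were higher in LC than in BC, none were lower and 6 were not called, with a median of 0.92 against -0.04 over all genes, of which 11.5% were called higher. They included Cldn7 (3.45), the claudin that Epcam binds, the serine protease gene St14 (1.93), its inhibitor Spint1 (2.56) and the sheddase gene Adam10 (2.44). In THC against TBC 4 of 13 were higher, among them Cldn7 (2.69, SE 0.24, adjusted p = 4.8e-04), Cldn1 (1.94) and Spint1 (1.66), and none were lower, where 2.57% of all genes were called higher. Cldn7 was called with any library of THC or TBC left out, while the calls of Cldn1 and Spint1 were lost without TBC replicate 1 (adjusted p = 0.075 and 0.18), TBC replicate 2 (adjusted p = 0.074 and 0.21) or THC replicate 2 (adjusted p = 0.083 and 0.076), and that of Spint1 also without THC replicate 1 (adjusted p = 0.18). In TLC against LC 1 of 13 was called (8.22% of all genes), the claudin gene Cldn1, at 1.60 (SE 0.31, adjusted p = 0.0095), and not without TLC replicate 1 or LC replicate 2 (adjusted p = 0.094 and 0.068). Cldn7 (-0.05) was not called there.

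Regulators of these genes were read from 2 lists. Of 9 repressors of Cdh1 and other epithelial genes, 2 were lower in LC than in BC and none higher, close to the 24.0% of all genes called there. Their median was -0.78, with the smallest adjusted p for Snai2, which encodes Slug, at -6.26 log2 units (SE 0.45, adjusted p = 6.6e-06). Snai2 was also the 1 of the 9 called in TLC against LC (8.22% of all genes), higher by 3.10 (SE 0.44, adjusted p = 0.0023), with means of 13.1 CPM in TLC, 1.55 in LC and 172 in TBC. In THC against TBC 0 of 9 were called by edgeR (3.72% of all genes called). Before adjustment 2 of the 9 were below 0.05, Snai2 and Zeb2, with values in opposite directions. So were 3380 of the 19757 genes tested. Snai2 stood at -1.27 (adjusted p = 0.069) and was called by DESeq2 and limma-voom (adjusted p = 0.0074 and 0.036). Zeb2 read 76.7 and 59.1 CPM in THC and 19.3 and 16.6 in TBC, at 1.91 (SE 0.74, adjusted p = 0.23), and was called by DESeq2 (adjusted p = 0.028) but not limma-voom (adjusted p = 0.094). Zeb1 read 13.9 and 19.4 CPM in THC and 7.1 and 4.47 in TBC, at 1.56 (SE 0.81, adjusted p = 0.37), and neither tool called it. A fit of TBC and THC alone in edgeR called Snai2, Zeb1 and Zeb2 (adjusted p = 0.011, 0.039 and 0.0071). Without the low-count filter edgeR called Snai2 and Zeb1 (adjusted p = 2.1e-05 and 0.022). Libraries of the 2 populations did not overlap for any of these 3 genes, where 51.7% of all genes showed the same. The part of the cells behind the higher endothelial, fibroblast and immune marker sums in THC was not tested. Of 11 epithelial transcription and splicing factors, 6 were higher in LC than in BC and none lower, with a median log2 fold change of 1 (11.5% of all genes called higher). They included Grhl1 (3.15), a Grainyhead-like factor, the ETS factor Ehf (3.07) and the splicing factor Esrp2 (2.08), while Grhl2 stood at 0.20. In THC against TBC 4 of the 11 were higher (2.57% of all genes), among them Ehf (2.97), Grhl1 (1.90) and Grhl3 (2.58). The call of Ehf held with any library of THC or TBC left out, that of Grhl1 was lost without TBC replicate 1 or THC replicate 2 (adjusted p = 0.067 and 0.083), and that of Grhl3 was lost each time (adjusted p = 0.061 to 0.14). In TLC against LC Grhl3 (2.83) was higher and the ETS factor Elf3 (-1.18) lower, 2 of 11 where 8.22% of all genes were called.

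The genes most like each member were the 3 with the highest Pearson r of log2 CPM over the 10 libraries, among 10667 genes with a mean of at least 10 CPM. These are descriptions, since the libraries share 5 populations. For Epcam they were Krt18 (r = 0.994), Mapkapk3 (0.994) and Krt8 (0.993), and for Cdh3 they were Dpysl2 (0.993), Sema6a (0.992) and Krt14 (0.992). Cdh1 was nearest to Gm4673 (0.986), Scyl2 (0.983) and Ermp1 (0.983), and Cdh2 to Lmo4 (0.980), Pbx3 (0.973) and Fyn (0.970). Cdh11 was nearest to the collagen gene Col5a2 (0.988), Fam198b (0.986) and Meg3 (0.986). Cdh13 had the lowest top value of the 6, with Igfbp5 (0.957), 2610301B20Rik (0.945) and Ly75 (0.938).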

How the data were processed

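The deposited values are raw read counts per Ensembl gene, 1 table per library. Per the submitters' processing notes the authors used STAR and HTSeq with GRCm38 (mm10), with versions, annotation release and strandedness not given in the sources used here. Per the labels' protocols, extraction used the RNeasy Micro Kit and library preparation the Ovation Solo RNA-Seq System. HTSeq's summary entries were removed, and 49412 of 49671 identifiers matched GENCODE M21. Genes passing filterByExpr (19757) were tested with edgeR 4.0.16 in R 4.3.3: TMM factors, robust quasi-likelihood F-test on all 10 libraries with 1 coefficient per population (5 residual degrees of freedom), with calls where the Benjamini-Hochberg adjusted p over all genes tested was under 0.05. Standard errors and 95% intervals were derived from the F statistic. CPM use TMM-scaled library sizes, with a prior count of 2 on the log2 scale. Replicate numbers follow record order and were not used for pairing. Alternatives were RLE factors, DESeq2 1.42.0, limma-voom 3.58.1, other filters, a term for the 2 runs of library numbers in the titles, a fit restricted to the compared populations, and the omission of each library. The members and lists were chosen with earlier results of these data known. Named genes were the 6 members, for lists the 3 smallest adjusted p per comparison and fixed anchor genes, and the 3 most alike genes per member. A list gene that this rule also names is not reported here.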

Additional observations from a re-analysis of the deposited data

Results flagged for a closer look

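For 2 of the 6 genes the difference between Tomato cells and cells without a treatment itself differed between lineages, tested as TLC to LC less TBC to BC. For Cdh3 the value was 4.56 log2 units, since TLC lay 22.3-fold above LC while TBC and BC averaged 381 and 403 CPM. For Cdh13 it was -2.76, since TLC lay 6.46-fold below LC while TBC and BC averaged 111 and 105 CPM. Both kept their call in each of 15 alternatives, at adjusted p up to 0.047 and 0.028.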

How the results depend on the processing

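For the 6 genes, 617 of 696 values under alternatives kept their direction and their side of the threshold, 37 lost a call, 23 gained one and 19 changed sign, none of them a called value. For the named list genes these numbers were 412 of 461, 26, 17 and 6. No alternative moved the number of the 6 genes called by over 1.5 times in LC against BC (5), TLC against LC (3), TLC against TBC (5) or THC against LC (4). In THC against BC, where 3 were called, omitting any library left 0. In THC against TBC, where 1 was called, DESeq2, limma-voom, no filter and a fit of those populations alone each gave 2, the library number term gave 3, and omitting a library gave 0 to 1. In THC against TLC, where 2 were called, RLE factors, limma-voom and the filter of 5 CPM in 2 libraries each gave 1, no filter gave 4, and omitting a library gave 0 to 1. Without a filter, 2 were called against the midpoint of TBC and TLC. The causes were not tested.

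Signs turned only when a library was omitted, and only for values that were not called. The ranges were -0.24 to 0.49 for Cdh13 in LC against BC and also in TBC against BC, -0.21 to 0.07 for Cdh3 in TBC against BC, -0.39 to 1.01 for Cdh11 in THC against BC, and -0.90 to 0.14 for Cdh2 in THC against TBC. In TLC against LC they were -0.19 to 0.18 for Cdh1, -0.02 to 0.22 for Ctnnd1, -0.24 to 0.29 for Jup and -0.32 to 0.15 for Cldn7. They were -0.36 to 0.09 for Epcam in TLC to LC less TBC to BC. Against the midpoint they were -0.23 to 0.11 for Cdh1 and -0.33 to 0.77 for Cdh2.

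Over all genes, the number called moved from 4742 to between 3131 and 5828 in LC against BC, from 0 to up to 398 in TBC against BC, from 1524 to between 280 and 2800 in THC against BC, and from 734 to between 177 and 1839 in THC against TBC. It moved from 1625 to between 494 and 2561 in TLC against LC, from 2551 to between 1191 and 3743 in THC against LC, from 318 to between 0 (without TLC replicate 2) and 1143 in THC against TLC, and from 2689 to between 1484 and 3561 in TLC against TBC. For TLC to LC less TBC to BC it moved from 180 to between 45 and 725, and for the midpoint from 75 to between 1 and 709.

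The labels carry no replicate numbers, but each run of library numbers in the titles (44 to 48, 80 to 84) holds 1 library per population. The fit with that run as a term, which acts as a replicate block, lost none of the 6 genes' calls and gained Cdh2 in THC against BC and TLC against TBC (adjusted p = 0.02 and 0.035), Cdh1 in THC against TBC, LC and TLC (0.022, 0.0073 and 0.028) and Cdh3 in THC against TBC (0.024). Whether a run marks a shared batch or day is not stated. With a library omitted, the single remaining library of its population was assumed to vary like the others. With 2 libraries per population and 7 and 1 counts of Cdh11 in LC, depth limits its fold changes and those of Cdh2 against LC.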

Other observations

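Of 17 further cadherins of the major family, 9 had enough counts to be tested. Cdh10, a type II cadherin known mainly from brain, was, like Cdh3, highest in BC and TBC and lowest in LC. It averaged 28.1 CPM in BC, 23.4 in TBC, 5.2 in THC, 5.95 in TLC and 0.377 in LC, with LC below BC (log2 difference -6.03, SE 0.72, adjusted p = 1.7e-04) and TLC above LC by 3.84 (SE 0.71, adjusted p = 0.0094). The second call was lost without TLC replicate 2 (2.86, adjusted p = 0.067), and in THC against TBC the value was -2.01 (adjusted p = 0.081). The call in THC against TBC was made by DESeq2 (adjusted p = 0.0035). Cdh6, at 2.18 CPM in BC and 0.234 in LC (3 and 2 counts), was lower in LC (-3.18), though not without LC replicate 2 (adjusted p = 0.084). Cdh5, the cadherin of endothelium, read 112 and 121 CPM in THC and 6.96 to 85.1 in the other libraries.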
